A study of Mus musculus with 6 samples.

Results

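Of the 39017 genes in the raw exon count table, 85 carry the symbol of a nuclear-encoded subunit of the oxidative phosphorylation system, and these 85 genes were compared between Control and Prmt1-null B cells by complex. They were taken by symbol alone (Nduf with a, b, c, s or v and a number, Sdha to Sdhd, Uqcr, Cox4 to Cox8, and Atp5), without the 1 matching symbol marked as a pseudogene, so no measured value entered the choice. The rule gave 37 genes for complex I, 4 for complex II, 8 for complex III, 18 for complex IV and 18 for complex V. A few matched symbols name proteins that sit elsewhere. Ndufa4 and its paralogue Ndufa4l2 were named for complex I but are now placed with complex IV, Cox7a2l is a supercomplex factor, Atp5s is coupling factor B, Atp5sl is a complex I assembly factor, and Atp5l2 is annotated as a processed pseudogene.

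The cells were iGBs (induced germinal center phenotype B cells), made by plating splenic B cells of C57BL6/J mice on 40LB feeder fibroblasts, which supply CD40L and BAFF, with IL-4. The study asked what Prmt1 controls within activated B cells, and sequenced rRNA-depleted total RNA from 1 library per mouse. Control iGBs came from 3 Cg1-cre mice and Prmt1-null iGBs from 3 Cg1-cre Prmt1f/f mice, 2 females and 1 male of each genotype, so both groups carried Cre. Cells were harvested at day 3.5, after the feeders had been depleted. The labels give 5 ng/ml IL-4, the study's methods state another dose, and no age was given in the sources used here. Cre was driven from the Cγ1 locus, whose germline transcription starts on activation, so deletion takes place during the culture and the cells are a population in which it may be incomplete. In such cultures the study saw less asymmetric dimethylarginine by day 3, and no noticeable outgrowth of cells without deletion. In RNA from whole cultures, fewer cells making a transcript and less of it per cell cannot be told apart. With 3 mice per group, p-values measure the spread between these mice in these cultures.

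In oxidative phosphorylation, complex I (NADH dehydrogenase) and complex II (succinate dehydrogenase) feed electrons to coenzyme Q, complex III passes them to cytochrome c, and complex IV (cytochrome c oxidase) hands them to oxygen. Complexes I, III and IV pump protons across the inner membrane, and complex V (ATP synthase) uses the gradient to make ATP. Complex II is made of nuclear gene products only, while the other complexes also contain subunits encoded in mitochondrial DNA. PRMT1, the enzyme deleted here, is the main source of asymmetric dimethylarginine in proteins, and B cells are known to expand their mitochondrial respiration when activated.

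Library totals ranged from 45343250 counts (Control replicate 1) to 62774232 counts (Control replicate 2), and the 85 genes took between 0.376% and 0.426% of them. Prmt1 was at 3964, 3924 and 4838 normalized counts in Control and at 1745, 1478 and 1477 after deletion, where a normalized count is a count scaled to an effective library of 55454094. It was lower in every Prmt1-null library (log2 fold change -1.44, SE 0.10, adjusted p = 1.11e-05, edgeR's quasi-likelihood F test with p-values adjusted by Benjamini-Hochberg over all genes, as for every adjusted p given here unless DESeq2 is named). The B cell markers Ms4a1 (136300 to 150400 normalized counts over the 6 libraries), Cd79a (34740 to 48200) and Pax5 (10280 to 11750) were high in both groups, and none was called (adjusted p = 0.48, 0.75 and 0.97). Markers of fibroblasts, the cell type of the feeders, summed to 1519 to 1711 and 1702 to 2014, with 7 of 7 tested markers higher in Prmt1-null and 0 called, and Postn at 0 in all 6 libraries. Myeloid markers summed to 494.5 to 684.2 and 843.5 to 864.7, with Adgre1 alone called among the 4 tested (log2 fold change 0.73, SE 0.15, adjusted p = 0.032), Lyz2 between 0 and 86.9, and Cd14 at 0 in 5 of 6 libraries. T cell markers summed to 27.9 to 122.9 in Control and 34.0 to 127.6 in Prmt1-null, and erythroid markers to 326.6 to 536.6 and 392.3 to 427.3, with 0 genes called in either list. The part of these other cells in the results that follow was not tested.

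Transcripts for the nuclear subunits differed little between Prmt1-null and Control iGBs. Of the 81 members with enough counts to test, only 1 was called. Called means an adjusted p under 0.05 and a mean above 100 normalized counts. That member was Atp5g1, a gene for the c subunit of the ATP synthase rotor, which rose 1.49-fold. Its call was lost when any 1 of 5 of the libraries was left out. Cox6b2 had a larger fold change (1.72-fold) but was not called (adjusted p = 0.20). Across all 18268 genes tested, 216 were called, which is 1.18%. For 73 of the 81 members, the 95% interval of the log2 fold change lay within a 1.5-fold difference in either direction, and all of these 73 were among the 78 members with a mean above 100 normalized counts. Of all genes with such a mean, 10670 of 13092 had an interval within that bound. The 8 members with wider or shifted intervals were Atp5g1, Atp5e, Atp5l, Cox6a2, Cox6b2, Cox7a1, Ndufb3 and Ndufa4l2.

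More members were higher than lower in Prmt1-null iGBs, by small amounts. The log2 fold change was above 0 in 57 of 81 members (70.4%), against 49.9% of all genes tested, and the median was 0.06, against -0.001 over all genes. By complex, 30 of 37 genes were above 0 in complex I (median 0.07), 3 of 4 in complex II (0.11), 6 of 8 in complex III (0.11), 7 of 14 in complex IV (0.01) and 11 of 18 in complex V (0.02). With trends of GC content and length taken out, 47 members were above 0 (median 0.04), of which 23 were in complex I (0.07). At an unadjusted p under 0.05, 7 members were higher and 1 was lower, against 6.5% and 7% of all genes. The 3 Prmt1-null values all lay above the 3 Control values in 12 members (14.8%, against 9.95% of all genes) and below them in 4 (4.94%, against 9.92%).

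**Figure D1:**
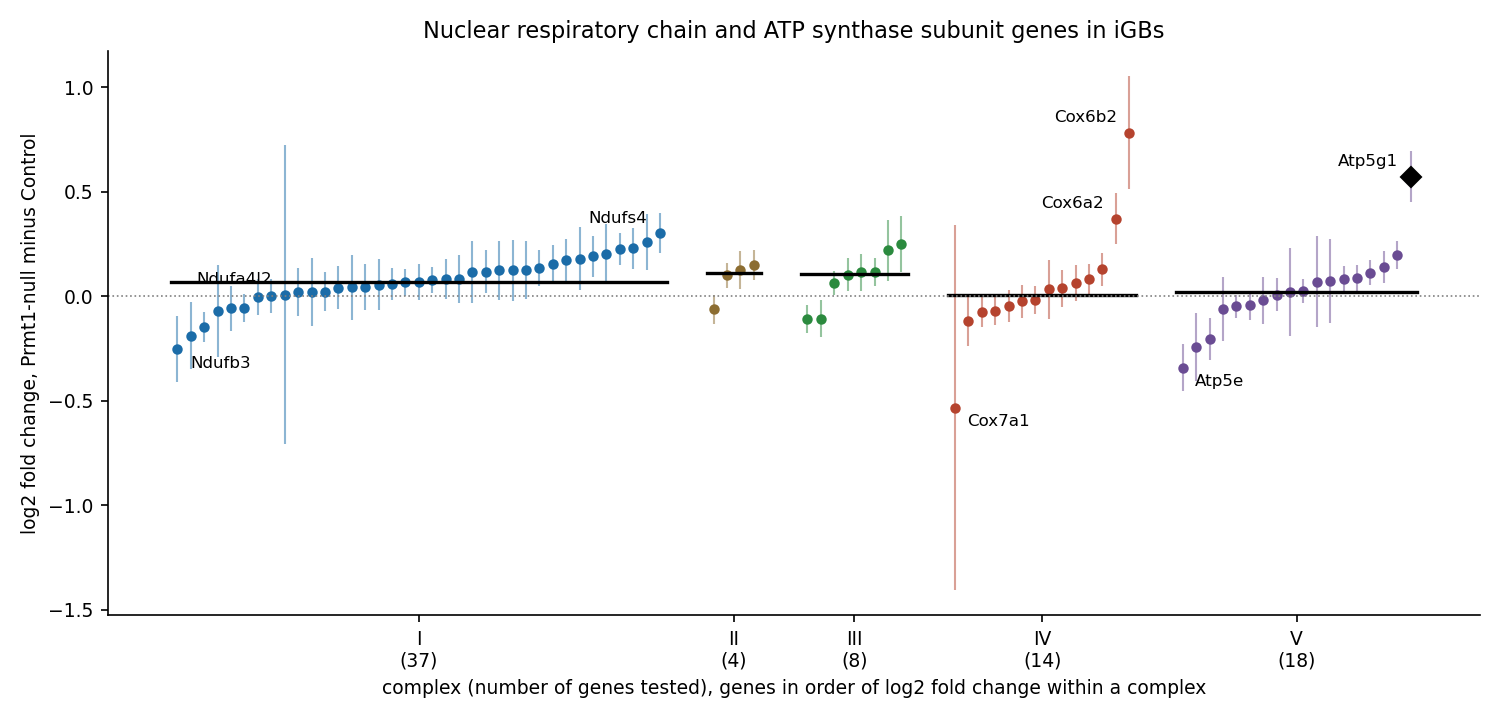
Log2 fold change (Prmt1-null minus Control, y axis) of the 81 genes tested, in order within each complex (x axis), with bars for the standard error and a black line for the median of each complex. Most points lie between -0.3 and 0.3, and the black diamond marks Atp5g1 (0.57), the only gene called.

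The medians of complexes I to III leaned on Control replicate 1, which was also the library with the fewest counts and the only Control male. After subtracting each gene's mean over the 6 libraries, the median log2 CPM (counts scaled to a common library size) of complex I genes was -0.13, 0.03 and 0.02 in Control and 0.02, 0.04 and 0.08 in Prmt1-null replicates 1 to 3. For complex III the Control medians were -0.13, 0.03 and 0.03 and the Prmt1-null medians -0.05, 0.11 and 0.07. Complex IV had medians of -0.14, 0.03 and 0.06 in Control and -0.02, 0.004 and 0.05 in Prmt1-null libraries. Control replicate 1 was thus the lowest library in each of these complexes, and the other Control libraries lay within the range of the Prmt1-null libraries in complexes I and III. Complex II had medians of -0.10, 0.01 and -0.001 in Control and -0.01, 0.07 and 0.05 in Prmt1-null, and complex V -0.03, -0.01 and 0.01 against -0.01, 0.01 and 0.05. Without Control replicate 1, the median log2 fold change was 0.03 for complex I, with 20 of 37 genes above 0, 0.07 for complex II, 0.06 for complex III, -0.09 for complex IV and 0.01 for complex V. Over all members it was then 0.02, with 45 of 81 above 0. Other libraries moved the medians too. That of complex II was 0.075 without Prmt1-null replicate 2, and that of complex I 0.107 without Prmt1-null replicate 1. For complex V it was 0.011 without Prmt1-null replicate 1 or 3. Summed normalized counts per complex gave Prmt1-null to Control ratios of 1.05 (I), 1.05 (II), 1.04 (III), 0.997 (IV) and 1.06 (V).

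**Figure D2:**
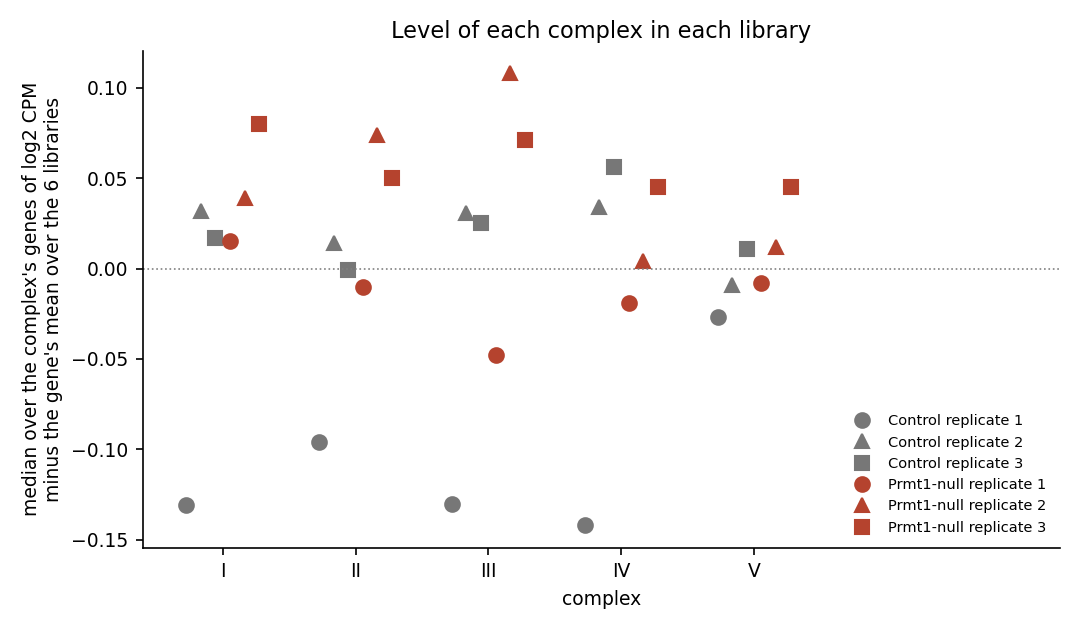
Median, over the genes of each complex (x axis), of log2 CPM minus the gene's mean over the 6 libraries (y axis), with 1 point per library, Control in grey and Prmt1-null in red. Control replicate 1 is the lowest point of every complex, from -0.03 in complex V to -0.14 in complex IV, and the other points lie between -0.05 and 0.11.

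Levels between genes were compared as FPKM (counts per kilobase of merged exons, scaled for library size), which understates genes whose annotated exons are longer than the main transcript. In Control iGBs the median member had 11.8 FPKM in complex I, 25.1 in complex II, 31.1 in complex III, 26.0 in complex IV and 19.1 in complex V. The highest gene of each complex was Ndufc2 at 189 ± 10.4 (SD, n = 3), Sdhd at 33.1 ± 1.08, Uqcrc2 at 58.3 ± 1.69, Cox8a at 281 ± 34.4 and Atp5a1 at 89.3 ± 1.73 FPKM. In complex IV Cox7a2l followed at 270 ± 17.8 FPKM. Cox8a and Cox7a2l differed by less than their SDs. At the low end, Ndufa4l2 had 0.235 and Cox7a1 0.471 FPKM.

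**Figure D3:**
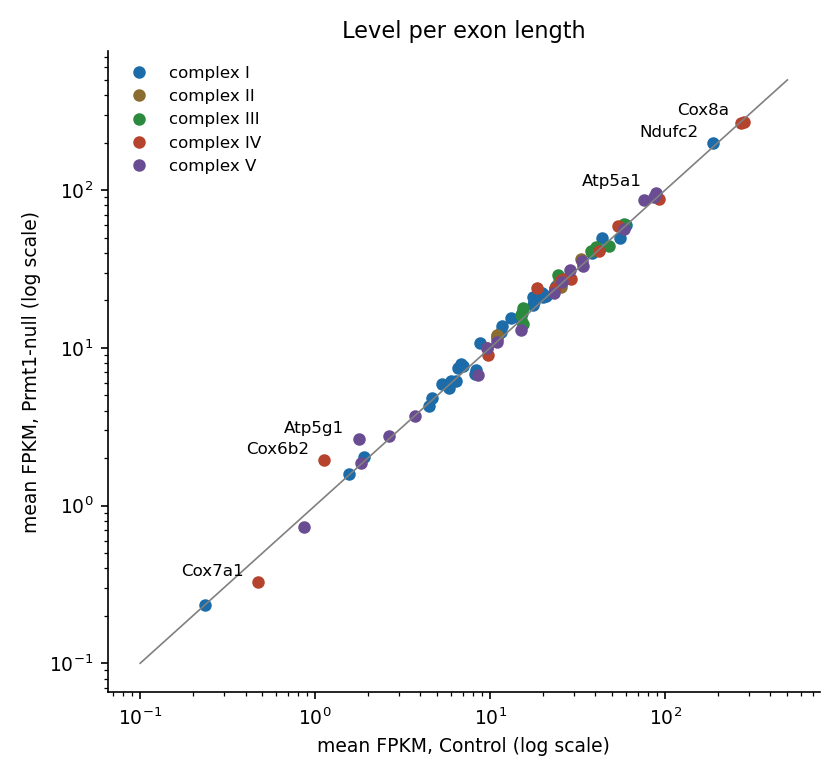
Mean FPKM of each of the 81 genes in Control (x axis) and Prmt1-null iGBs (y axis), both on log scales, coloured by complex, with the line of equal levels. Levels span from 0.235 (Ndufa4l2) to 281 FPKM (Cox8a) in Control, and Atp5g1 and Cox6b2 lie above the line.

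In complex I, 0 of 37 genes were called, and the log2 fold changes ran from -0.25 to 0.30. An unadjusted p under 0.05 was found for 3 (8.11%, against 13.5% of all genes). The 7 core subunits, which hold the flavin and the iron-sulfur clusters or build the electron path, had a median of 0.06 (5 above 0), and the 28 accessory subunits a median of 0.08 (23 above 0). The smallest p belonged to Ndufs4, an accessory subunit needed for a stable NADH-oxidizing module, with 1191, 1429 and 1300 normalized counts in the Control libraries and, in Prmt1-null, 1548, 1636 and 1652. All Prmt1-null libraries were above all Control libraries, yet the difference did not pass the test (log2 fold change 0.30, SE 0.10, adjusted p = 0.16). Ndufv3, a small subunit of the same module, gave 2104, 2467 and 2432 in Control and 2763, 2759 and 2665 in Prmt1-null, again without overlap (0.23, SE 0.08, adjusted p = 0.20). Ndufa9, which lies where the peripheral arm meets the membrane arm, had 1228, 1519 and 1366 against 1563, 1624 and 1636 normalized counts (0.23, SE 0.10, adjusted p = 0.31). Ndufb5 was the other of the 4 complex I genes whose Prmt1-null values were all higher (0.15, adjusted p = 0.51), and Ndufa3 had Prmt1-null values that were all lower (-0.15, adjusted p = 0.38). Of the complex I genes, 10.8% were thus higher in every Prmt1-null library and 2.7% lower, against 9.95% and 9.92% of all genes. The lowest fold change was that of Ndufb3, a membrane arm subunit, with 386.4, 321.3 and 326.1 (Control) and 291.6, 322.6 and 252.4 (Prmt1-null) normalized counts (-0.25, SE 0.16, adjusted p = 0.53), where the groups overlapped. Ndufc2, the complex I gene with the highest FPKM, differed by 0.08 (SE 0.06, adjusted p = 0.63).

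None of the 4 complex II genes was called. Sdhd, a membrane anchor of succinate dehydrogenase, had 2194, 2338 and 2238 normalized counts in Control, against 2475, 2451 and 2587 in Prmt1-null. These groups did not overlap, but the test was not passed (log2 fold change 0.15, SE 0.07, adjusted p = 0.38). The flavoprotein gene Sdha (0.10, SE 0.06, adjusted p = 0.50), the other anchor gene Sdhc (0.13, SE 0.09, adjusted p = 0.60; 0.05 without Control replicate 1 and 0.07 without Prmt1-null replicate 2) and the iron-sulfur subunit gene Sdhb (-0.06, SE 0.07, adjusted p = 0.76) overlapped between groups.

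None of the 8 complex III genes was called, and none had an unadjusted p under 0.05. The Rieske iron-sulfur protein gene Uqcrfs1 had 2912, 2998 and 3248 normalized counts in the Control libraries and, in Prmt1-null, 3256, 3379 and 3287, without overlap (log2 fold change 0.12, SE 0.07, adjusted p = 0.49). Uqcrq, a small subunit next to cytochrome b, had 1488, 1564 and 1615 against 1442, 1416 and 1477, with every Prmt1-null value lower (-0.11, SE 0.09, adjusted p = 0.65). Uqcr10 had the highest fold change (0.25, SE 0.13, adjusted p = 0.45; 0.15 without Control replicate 1 and 0.40 without Control replicate 3), with 667.0, 755.9 and 944.2 (Control) and 849.5, 1008 and 953.8 (Prmt1-null) normalized counts, and Uqcrh, the hinge protein gene, the lowest (-0.11, SE 0.07, adjusted p = 0.53). The core protein gene Uqcrc2, the highest of the complex by FPKM, differed by 0.06 (SE 0.06, adjusted p = 0.68).

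Complex IV has several subunits with tissue-specific isoforms, and iGBs used mainly 1 isoform of most of them. Of the 18 matched genes, 14 passed the filter on low counts. Cox7b2 and Cox8c, both known as testis isoforms, had 0 counts in every library, which allows at most 3 counts, or 0.0478 to 0.0662 CPM, and covers counting error only. Cox4i2, the lung isoform, had 4, 0 and 0 counts in Control and 1, 2 and 0 in Prmt1-null, and Cox8b, a heart and muscle isoform, 19, 0 and 0 against 6, 1 and 1. Their ubiquitous counterparts Cox4i1, Cox7b and Cox8a each held at least 99.7% of the counts of their isoform group in every library. Of the counts under Cox7a symbols, Cox7a2l, the supercomplex factor, held 94.0 ± 0.483% in Control iGBs and 93.8 ± 0.238% after deletion (n = 3 each). Cox7a2 held 5.93 ± 0.522% and 6.13 ± 0.266%, and the muscle isoform Cox7a1 less than 0.1% in each library. Between these isoforms, Cox7a2 had 1346 to 1426 normalized counts in Control and 1381 to 1458 in Prmt1-null. Cox7a1 had 3.6 to 24.2 and 1.8 to 15.1. Ndufa4 held 99.5 ± 0.228% of the counts it shared with Ndufa4l2 in Control and 99.5 ± 0.288% in Prmt1-null.

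None of the 14 complex IV genes tested was called. An unadjusted p under 0.05 was found for 2 (14.3%, against 13.5% of all genes), both higher in Prmt1-null iGBs. The first was Cox6a2, described as the heart and muscle isoform of subunit VIa, with 664.6, 640.9 and 798.8 normalized counts in Control, against 836.3, 970.7 and 913.1 in Prmt1-null. The groups did not overlap (log2 fold change 0.37, SE 0.12, adjusted p = 0.17). Its exons overlap those of Itgad on the opposite strand, and whether counting used the strand was not given in the sources used here. Itgad, an integrin gene, was at 27.9, 50.9 and 37.5 against 53.7, 49.8 and 49.2 normalized counts (0.38, SE 0.40, adjusted p = 0.75). The liver-type isoform Cox6a1 had 695.0, 975.4 and 1056 normalized counts in the Control libraries and, in Prmt1-null, 985.2, 843.5 and 961.3 (0.03, SE 0.14, adjusted p = 0.95). Cox6a2 thus took 48.9%, 39.7% and 43.1% of the counts of the pair in Control and 45.9%, 53.5% and 48.7% in Prmt1-null, and these shares overlapped (two-sided exact permutation test, p = 0.3).

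The other was Cox6b2, the testis isoform of subunit VIb, with 70.5, 80.8 and 55.1 (Control) and 111.4, 120.8 and 123.8 (Prmt1-null) normalized counts. Every Prmt1-null library was higher (log2 fold change 0.78, SE 0.27, adjusted p = 0.20), at a mean of 93.7, under the minimum of 100 set for a call. With the shrinkage prior of DESeq2 its log2 fold change was 0.28. Its share of the counts of Cox6b1 and Cox6b2 was 1.87 ± 0.360% in Control and 3.33 ± 0.263% in Prmt1-null (n = 3 each, two-sided exact permutation p = 0.1, the smallest that 3 against 3 allows). Cox6b1 itself had 3442, 3698 and 3723 against 3462, 3590 and 3291 (-0.07, SE 0.07, adjusted p = 0.70). Of the rest, the fold changes nearest to the ends among genes with a mean above 100 were 0.13 for Cox7b (adjusted p = 0.53) and -0.12 for Cox7c (adjusted p = 0.73). Cox7b was at 0.04 without Control replicate 1 and 0.19 without Control replicate 3, and Cox7c at -0.05 without Control replicate 2. Cox8a, Cox4i1, Cox7a2, Cox7a2l and Ndufa4 had log2 fold changes between -0.05 and 0.07, and Cox7a1 (-0.53, SE 0.87) and Ndufa4l2 (0.01, SE 0.71), with means of 11.8 and 14.2 normalized counts, were too low to tell.

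**Figure D4:**
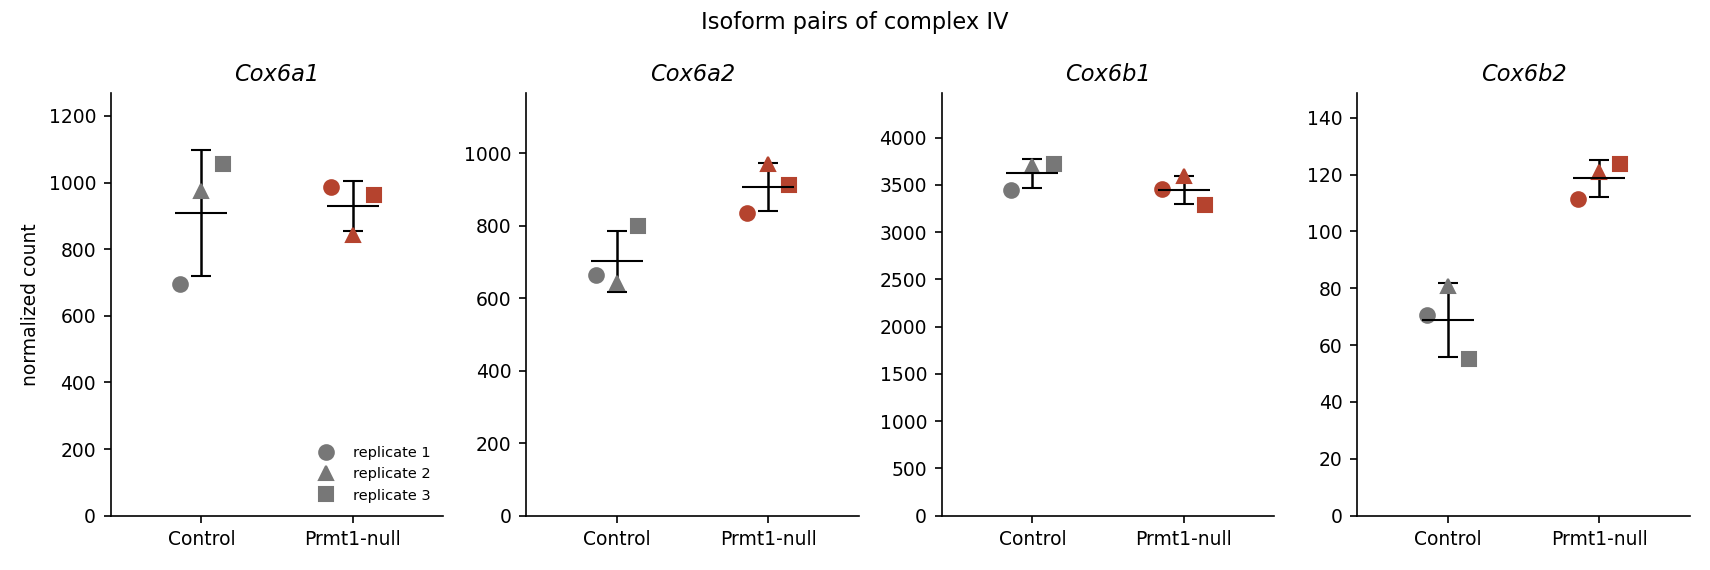
Normalized counts (y axis, from 0) of the Cox6a and Cox6b isoform pairs in each library, with 1 marker shape per replicate number and the group mean ± SD in black. Cox6a2 and Cox6b2 do not overlap between Control and Prmt1-null, while Cox6a1 and Cox6b1 do.

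In complex V, 1 of 18 genes was called. It belongs to the c subunit, the protein whose ring turns in the membrane as protons pass. The genes Atp5g1, Atp5g2 and Atp5g3 encode precursors that differ in their mitochondrial targeting sequence and yield the same mature protein. The last 78 codons of the 3 open reading frames, which read 411, 573 and 426 coding bases in all, encoded the same residues. These tails are shown because they tell how far reads from the 3 genes can be told apart, with capitals at the 64 of 237 positions where the 3 genes are not identical (GENCODE transcripts on GRCm38):
Atp5g1: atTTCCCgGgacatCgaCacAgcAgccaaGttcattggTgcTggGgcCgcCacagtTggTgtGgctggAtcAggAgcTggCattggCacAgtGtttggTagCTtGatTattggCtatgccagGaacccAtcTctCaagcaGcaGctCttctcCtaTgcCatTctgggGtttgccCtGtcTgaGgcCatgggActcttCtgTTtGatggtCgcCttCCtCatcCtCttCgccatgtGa
Atp5g2: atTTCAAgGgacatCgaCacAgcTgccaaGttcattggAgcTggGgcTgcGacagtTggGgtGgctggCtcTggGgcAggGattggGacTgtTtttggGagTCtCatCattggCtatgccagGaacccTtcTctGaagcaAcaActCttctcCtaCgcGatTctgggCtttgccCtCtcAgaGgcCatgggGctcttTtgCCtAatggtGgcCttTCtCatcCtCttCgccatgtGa
Atp5g3: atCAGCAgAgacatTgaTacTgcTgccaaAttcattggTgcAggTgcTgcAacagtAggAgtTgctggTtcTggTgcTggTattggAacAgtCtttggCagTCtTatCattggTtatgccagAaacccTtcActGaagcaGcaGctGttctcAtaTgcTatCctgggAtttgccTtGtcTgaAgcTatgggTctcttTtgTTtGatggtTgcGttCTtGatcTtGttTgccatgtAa
The tails of Atp5g1 and Atp5g2 shared 84.8% of bases, those of Atp5g1 and Atp5g3 78.5%, and those of Atp5g2 and Atp5g3 77.2%. The longest stretch shared exactly by any transcripts of Atp5g1 and Atp5g2 was 21 bases.

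Atp5g1 (ENSMUSG00000006057, GRCm38 chromosome 11, 96068852 to 96075670, minus strand) had 537.0, 450.4 and 460.6 normalized counts in Control, against 670.3, 742.1 and 737.3 in Prmt1-null. All Prmt1-null libraries were above all Control libraries. The mean went from 483 ± 47.4 to 717 ± 40.2 (SD, n = 3 each), a log2 fold change of 0.57 (SE 0.12, 95% interval 0.31 to 0.83, adjusted p = 0.040). The direction held when any library was left out, with log2 fold changes from 0.52 to 0.66, but the call held only without Control replicate 1 (adjusted p = 0.033). It was lost without Control replicate 2 (adjusted p = 0.17) or 3 (0.070) and without Prmt1-null replicate 1 (0.12), 2 (0.20) or 3 (0.14).

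The other c subunit genes were not called. Atp5g2 (chromosome 15, 102662864 to 102672352, minus strand) had 1516, 1392 and 1275 normalized counts in the Control libraries and, in Prmt1-null, 1209, 1276 and 1143, with overlap (log2 fold change -0.21, SE 0.10, adjusted p = 0.40). Atp5g3 (chromosome 2, 73908447 to 73911326, minus strand), the gene with most of the counts, had 7037, 7138 and 7078 against 6732, 6837 and 6981, all Prmt1-null values being lower (-0.05, SE 0.05, adjusted p = 0.76). The share of Atp5g1 in the counts of the 3 genes was 5.91%, 5.02% and 5.23% in Control and 7.78%, 8.38% and 8.32% in Prmt1-null iGBs, without overlap (two-sided exact permutation p = 0.1, the smallest possible here). The share of Atp5g2 was 15.5 ± 1.11% and 13.8 ± 0.787% (p = 0.1 in the same exact test), and that of Atp5g3 79.1 ± 1.49% and 78.1 ± 0.792% (p = 0.4), with n = 3 each. The sum of normalized counts over the 3 genes was 8961 ± 139 in Control and 8776 ± 142 in Prmt1-null.

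**Figure D5:**
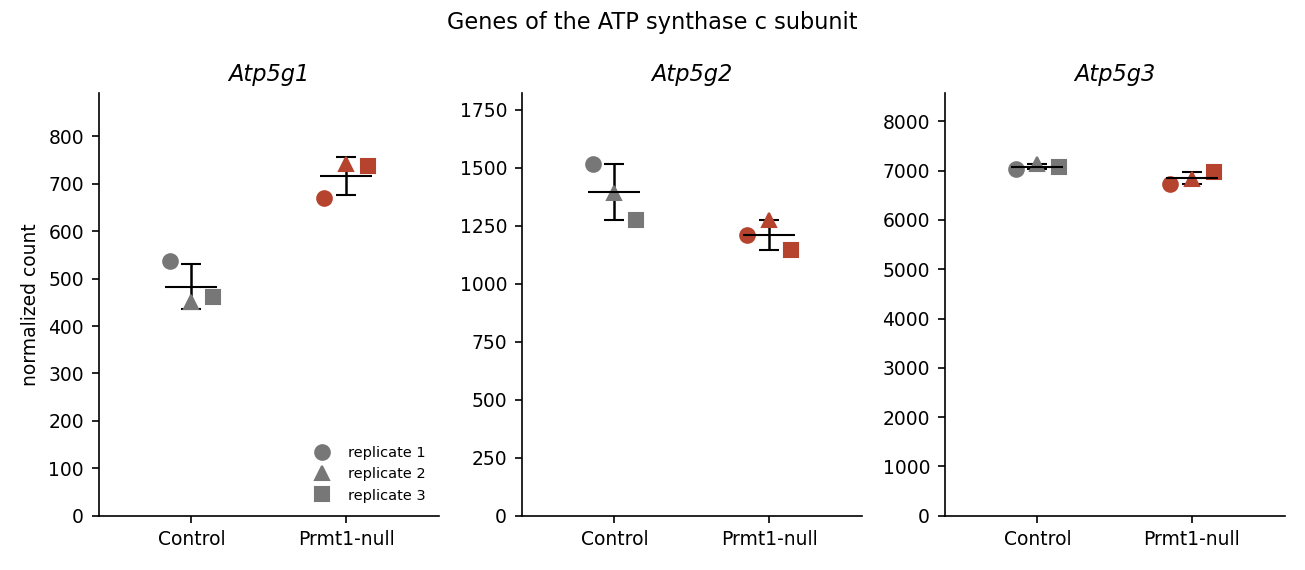
Normalized counts (y axis, from 0) of the c subunit genes in each library, with 1 marker shape per replicate number and the group mean ± SD in black. Atp5g1 lies between 450.4 and 537.0 in Control and between 670.3 and 742.1 in Prmt1-null, while Atp5g3 stays between 6732 and 7138 throughout.

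The promoters of these genes are shown because 1 of the 3 was called. Windows of 300 bases, from 250 before to 50 after the transcription start, came from RefSeq on GRCm38.p6 and are printed 5′ to 3′ along the gene. Capitals mark matches on either strand to motifs known from respiratory chain promoters, namely NRF1 (its core CGCATGCG), ETS as bound by GABP (CCGGAAG), YY1 (AAGATGGC), the CCAAT box (CCAAT), the E-box (CACGTG) and the SP1 GC box (GGGCGG).
Atp5g1, chr11:96075582-96075881, minus strand: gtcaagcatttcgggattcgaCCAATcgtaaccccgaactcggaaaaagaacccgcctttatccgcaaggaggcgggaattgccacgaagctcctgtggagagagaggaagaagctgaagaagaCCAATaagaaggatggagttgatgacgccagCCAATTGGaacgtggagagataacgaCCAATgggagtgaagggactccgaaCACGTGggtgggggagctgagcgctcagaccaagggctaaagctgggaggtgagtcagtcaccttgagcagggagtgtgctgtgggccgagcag
Atp5g2, chr15:102670998-102671297, minus strand: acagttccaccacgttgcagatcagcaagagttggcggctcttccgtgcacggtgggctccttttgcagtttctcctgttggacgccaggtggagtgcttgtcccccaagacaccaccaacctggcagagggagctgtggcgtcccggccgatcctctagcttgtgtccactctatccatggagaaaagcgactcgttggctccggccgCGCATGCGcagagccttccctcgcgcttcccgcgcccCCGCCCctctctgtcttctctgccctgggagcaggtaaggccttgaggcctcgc
Atp5g3, chr2:73911277-73911576, minus strand: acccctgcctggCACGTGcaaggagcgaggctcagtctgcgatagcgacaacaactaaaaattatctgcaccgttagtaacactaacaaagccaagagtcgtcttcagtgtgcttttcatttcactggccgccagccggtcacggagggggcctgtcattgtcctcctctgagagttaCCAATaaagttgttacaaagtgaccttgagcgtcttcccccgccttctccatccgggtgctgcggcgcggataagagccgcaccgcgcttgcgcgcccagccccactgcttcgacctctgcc
The Atp5g1 window held 5 CCAAT matches, of which 2 overlap on opposite strands, and 1 E-box. The Atp5g2 window held 1 NRF1 match and 1 SP1 match, and the Atp5g3 window 1 CCAAT match and 1 E-box.

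RefSeq windows matched 69 of the 85 members, giving 75 windows. NRF1 matches lay in 12.0% of these windows and in 1.87% of all 32851 windows of the same length, YY1 matches in 16.0% and 2.75%, and ETS matches in 21.3% and 8.86%. E-boxes lay in 12.0% and 7.15%, CCAAT boxes in 42.7% and 37.4%, and SP1 boxes in 38.7% and 35.7%. A match is a run of letters and does not show binding. For the factors of these motifs that are among the regulators listed for comparison, the log2 fold changes were 0.02 for Nrf1, 0.002 for Gabpa and 0.01 for Yy1 (adjusted p = 0.94, 0.99 and 0.97), and -0.18 for Gabpb2, a partner of Gabpa that was lower in every Prmt1-null library (SE 0.06, adjusted p = 0.17). The other partner, Gabpb1, was at 0.03 (SE 0.06, adjusted p = 0.89). Those of the CCAAT box, the E-box and the GC box were not examined.

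The catalytic head of ATP synthase and its connector to the stator (OSCP) had 4 of 6 genes above 0, with a median of 0.08. Atp5b, the catalytic beta subunit gene, had 16450, 18780 and 18220 (Control) and 19660, 20150 and 21490 (Prmt1-null) normalized counts. The groups did not overlap, and the difference missed the threshold (log2 fold change 0.20, SE 0.07, adjusted p = 0.20), although DESeq2 called it (adjusted p = 0.047). Atp5a1, the alpha subunit gene, had 15220, 15530 and 15820 against 16090, 16620 and 17610, also without overlap (0.11, SE 0.06, adjusted p = 0.45). Atp5o, which encodes OSCP, was likewise higher in every Prmt1-null library (0.09, SE 0.06, adjusted p = 0.58). In the opposite direction, Atp5e, the small epsilon subunit gene of the central stalk, had 861.4, 864.8 and 755.8 normalized counts in Control, against 625.7, 629.6 and 702.3 in Prmt1-null. Each Prmt1-null value was lower, and the test was not passed (-0.34, SE 0.11, adjusted p = 0.18). The 9 genes of the membrane part and stator had a median of 0.02 (5 above 0).

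Annotated exons of 29 of the 85 members overlap those of another gene, on the opposite strand in 26, and their counts are uncertain to that extent. Among the genes described with values above, this holds for Ndufa9, Ndufa3, Ndufb5, Uqcrc2, Cox4i1, Cox6a2, Ndufa4l2, Atp5a1, Atp5o and Atp5g2.

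Factors that build the complexes gave 0 called genes in any of 5 lists. Complex I assembly factors had 11 of 16 above 0 (median 0.13), and 3 of them (Ndufaf5, Ndufaf7 and Timmdc1) were higher in every Prmt1-null library (18.8%, against 9.95% of all genes), with log2 fold changes of 0.57, 0.27 and 0.24 (adjusted p = 0.33, 0.39 and 0.34). The smallest p was that of Ndufaf3, with 462.9, 406.5 and 603.8 normalized counts in the Control libraries and, in Prmt1-null, 584.2, 663.7 and 688.2 (0.40, SE 0.15, adjusted p = 0.25), where the groups overlapped. All 4 complex II assembly factors were below 0 (median -0.16), with Sdhaf2, which helps to attach flavin to Sdha, at -0.10 (SE 0.06, adjusted p = 0.49) and the only 1 of the 4 that was lower in every Prmt1-null library. Complex III assembly factors had 5 of 6 above 0 (median 0.11; Ttc19 at 0.18, adjusted p = 0.58), of which Uqcc3 was higher in every Prmt1-null library (0.22, adjusted p = 0.60). Complex IV factors had 13 of 23 above 0 (median 0.05), and the smallest p was that of Coa5, with 9476, 8820 and 9274 (Control) and 10800, 10730 and 10300 (Prmt1-null) normalized counts (0.21, SE 0.06, adjusted p = 0.11, DESeq2 adjusted p = 0.015). At an unadjusted p under 0.05 this list had 1 gene higher, Coa5, and 4 lower (21.7% in both directions, against 13.5% of all genes). The lower genes were Cmc1 (-0.55, adjusted p = 0.24), Cox14 (-0.32, adjusted p = 0.27), Cox18 (-0.33, adjusted p = 0.33) and Cox15 (-0.19, adjusted p = 0.37). Of these, Cmc1 and Cox14 were lower in every Prmt1-null library (8.7% of the list, against 9.92% of all genes). Complex V factors had 3 of 5 above 0, with Atpaf2, a chaperone of the alpha subunit, at 0.23 (SE 0.09, adjusted p = 0.25) and higher in every Prmt1-null library, and Tmem242 at -0.23 (SE 0.11, adjusted p = 0.39) and lower in every one.

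Subunit genes that the symbol rule misses (Ndufab1, Cyc1, Usmg5, 2010107E04Rik and the inhibitor gene Atpif1) had 4 of 5 above 0, 0 called, and the widest difference in Usmg5 (-0.30, SE 0.22, adjusted p = 0.61), which was -0.07 without Control replicate 2 and -0.46 without Control replicate 3. Cytochrome c and coenzyme Q synthesis genes had 8 of 14 above 0 and 0 called, with Coq8b (listed as Adck4), a kinase-like coenzyme Q protein, at -0.32 (SE 0.15, adjusted p = 0.35), where the groups overlapped. Coq7 (0.42, SE 0.24, adjusted p = 0.49) and Coq9 (0.14, SE 0.11, adjusted p = 0.61) were higher in every Prmt1-null library. Of 16 regulators of mitochondrial gene expression and DNA copy number, 12 were above 0 and 0 called, and Ppargc1b (0.28, adjusted p = 0.54) and Pprc1 (0.10, adjusted p = 0.62) were higher in every Prmt1-null library. The enzymes of the tricarboxylic acid cycle, which supply NADH and succinate, had 10 of 14 above 0 and 0 called. At an unadjusted p under 0.05, 4 were higher and 0 lower. That was 28.6%, against 13.5% of all genes and 16.8% of genes with a mean above 100 normalized counts. The 4 were Suclg1, Cs (0.19, adjusted p = 0.16), Fh1 (0.18, adjusted p = 0.21) and Idh3a (0.18, adjusted p = 0.30). Suclg1, Cs, Fh1 and Idh2 (0.09, adjusted p = 0.67) were higher in every Prmt1-null library (28.6%, against 9.95% of all genes). Ogdh (-0.08, adjusted p = 0.60) was lower in every one (7.14%, against 9.92%). Among them Suclg1 gave 2842, 2802 and 2869 normalized counts in Control, against 3181, 3348 and 3475 in Prmt1-null, without overlap (0.23, SE 0.06, adjusted p = 0.11, DESeq2 adjusted p = 0.035).

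The 13 mitochondrially encoded subunits had 6 above 0 and 7 below, 0 called and a median of -0.02, with mt-Co3 at -0.20 (SE 0.12, adjusted p = 0.50), which was -0.01 without Control replicate 1 and -0.33 without Control replicate 3. Their summed normalized counts were 1884200, 1460800 and 1052500 in Control and 1788800, 1600500 and 1032300 in Prmt1-null libraries, so the spread within each group was far wider than that of the nuclear members. These sums fell from replicate 1 to replicate 3 in both groups, and the cause was not tested.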

How the data were processed

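RNA of day 3.5 iGBs from 3 Control and 3 Prmt1-null mice was sequenced by the authors after rRNA depletion with a stranded kit. The file as deposited holds unnormalized exon counts by gene. The submitters' processing notes name Trimmomatic 0.32, STAR 2.3.0e and featureCounts 1.4.4 and the mm10 build. The strand setting of the counting is not given in the sources used here.

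Counts were tested with edgeR 4.0.16 (filterByExpr with a minimum count of 10, TMM scaling, quasi-likelihood F test, Benjamini-Hochberg adjustment over 18268 genes) under R 4.3.3, without chromosome Y genes, as the study's methods did. The script was tested on simulated data. The study used DESeq2, run here (version 1.42.0) as an alternative, as were its size factors in edgeR, no filter, the replicate number as a block, sex as a covariate, removal of GC content and length trends, and leaving out each library. Same-numbered libraries came from different mice. Over all genes tested, their deviations from group means correlated at -0.075, 0.045 and -0.078, so the numbers were not taken as pairs. The summed counts of mitochondrially encoded subunits did fall from replicate 1 to replicate 3 in both groups.

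Named genes were Prmt1, called genes, the 3 smallest p, the extremes of fold change and the highest FPKM of each complex, paralogue groups, untested members, and the smallest p of each pathway list. A few others (those that did not overlap between groups or had an unadjusted p under 0.05, overlapping genes, markers, and regulators with a motif) were added after their values were seen. The NRF1 motif was shortened to its core after matches to a longer form had been counted. Members and lists were chosen with earlier results of these data known. Gene positions are from GENCODE M21 (GRCm38), with 521 of 39017 genes unmatched. The smallest library limits precision for low genes: 3 counts are 0.0662 CPM there. A B cell marker of the lists is not reported here.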

Additional observations from a re-analysis of the deposited data

How the results depend on the processing

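The number of genes called was 216, and it was 706 with DESeq2, 705 with its shrinkage prior, 675 with no filter on low counts, 329 with GC content and length trends taken out, and 31 to 340 with a library left out. DESeq2, with or without the prior, called 2 members (2 in complex V, Atp5g1 and Atp5b), and leaving out a library gave 0 to 1, in complex V also 0 to 1. Same-numbered libraries did not all correlate best with each other. With the replicate block, 151 genes and 0 members (0 in complex V) were called, and Atp5g1 kept its log2 fold change (0.57, edgeR adjusted p = 0.076). The median log2 fold change of complex IV ranged from -0.085 to 0.076 with a library left out, the lowest being without Control replicate 1. Of 42 named genes, 2 changed sign with all libraries in: Cox6a1 (-0.003 without GC and length trends) and Ndufa4l2 (-0.063 with the block, -0.001 with sex as a covariate and -0.043 without GC and length trends). With a library left out, 7 did, with ranges of -0.119 to 0.053 for Cox8a, -0.11 to 0.04 for Cox4i1, -0.12 to 0.15 for Cox6a1, -1.01 to 0.10 for Cox7a1, -0.067 to 0.018 for Cox7a2l, -0.02 to 0.14 for Ndufa4 and -0.60 to 0.28 for Ndufa4l2. The cause was not tested. Fits without a library leave 2 against 3. Errors were widest for Cox7a1 and Ndufa4l2, with means under 15 normalized counts, and Cox6b2 was under the minimum of 100 for a call.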
